A study of Mus musculus with 16 samples.

Results

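The genes described here encode extracellular and pericellular proteases and their inhibitors in the mouse left ventricle (LV): matrix metalloproteinases (Mmp), the ADAM and ADAMTS families, the ADAMTS-like proteins, the tissue inhibitors of metalloproteinases (Timp) and the serpins. They were chosen by a rule on names, with earlier results of these data known. The rule took every gene of the deposited table whose symbol starts with Adamts or Serpin, or with Adam, Mmp or Timp and a number. Of the 42 genes that matched, Timp1, Serpina3n and Serping1 were set aside, which left 39 genes of 11811 in the table. They comprised 6 Mmp genes, 3 Timp genes, 7 Adam genes, 9 Adamts genes, 4 Adamts-like genes and 10 serpins.

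RNA of the LV free wall, without the septum, was sequenced from 8 TGAC8 mice and 8 wild type (WT) mice, males at 3 months of age on a C57BL/6 background, with 1 library for each mouse. In TGAC8 mice the murine α-myosin heavy chain promoter, active in cardiac myocytes, drives the human ADCY8 cDNA, whose product is a cAMP-producing adenylyl cyclase, and the WT mice lack this transgene. The level of each gene in each library is given in FPKM as the authors computed it, a read count scaled to the length of the transcript and to the mapped reads of the library, so that levels of different genes are compared per length of transcript. TGAC8 was compared with WT over libraries with limma on log2(FPKM + 0.1), and p-values were adjusted by Benjamini-Hochberg over the 11544 genes that averaged 0.5 FPKM or more.

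Mmp, ADAM and ADAMTS proteins share a catalytic domain in which 3 histidines hold a zinc ion. Most are made as inactive precursors, and many are activated by furin-like convertases or by one another. Together they cleave collagens, proteoglycans and cell surface proteins, and the balance between them and the Timps, which bind the active site, governs turnover of the cardiac extracellular matrix. Inhibitory serpins trap serine proteases such as thrombin and the plasminogen activators by a suicide mechanism, while some family members, among them the collagen chaperone Serpinh1, inhibit no protease.

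The zinc-binding motif was looked for in the coding sequence of each metalloproteinase gene in GENCODE vM21 on mm10, allowing glycine or asparagine at the position between the second and the third histidine where both occur. It was found in 6 of 6 Mmp genes, 5 of 7 Adam genes, 9 of 9 Adamts genes and 0 of 4 Adamts-like genes. The coding strand over the motif is shown for the called genes that carry it and for Adamts1, the Adamts gene with the highest level in WT, so that the shared catalytic core can be seen in genes whose levels differed between genotypes and in one whose level did not pass the test. Each is written 5′ to 3′ with the codons of the 3 histidines in capitals.
Mmp2, chr8:92839279-92839311, plus strand, exon 8: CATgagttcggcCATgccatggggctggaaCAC
Mmp14, chr14:54437627-54437659, plus strand, exon 5: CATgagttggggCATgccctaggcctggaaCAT
Mmp23, chr4:155651528-155651560, minus strand, exon 5: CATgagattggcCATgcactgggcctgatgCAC
Adam9, chr8:24990326-24990358, minus strand, exon 11: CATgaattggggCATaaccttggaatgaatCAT
Adamts2, chr11:50775403-50776134, plus strand, split between exons 7 and 8: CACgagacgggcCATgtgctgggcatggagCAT
Adamts10, chr17:33538157-33538279, plus strand, split between exons 9 and 10: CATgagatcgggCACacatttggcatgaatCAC
Adamts1, chr16:85799191-85799545, minus strand, split between exons 3 and 4: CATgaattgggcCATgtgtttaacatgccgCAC
Adamts1, Adamts9 and Adamts15 carried the asparagine form and the other 6 Adamts genes the glycine form. Adam11 and Adam22 lack the motif, as do the Adamts-like genes, which are known as secreted matrix proteins without protease activity.

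The human ADCY8 transcript, which checks the labels, was at 503 ± 62.2 FPKM (SD, n = 8) in TGAC8, at 0 in 7 WT libraries and at 0.345 FPKM in the other WT library, a difference of 12.02 on the log2 scale (exact permutation test over 12870 splits, 2-sided, p = 0.000155, the smallest it can give). Means are given ± SD over the 8 libraries of a genotype throughout. The listed FPKM summed to between 314283 and 374087 in the TGAC8 libraries and to between 356854 and 407506 in the WT libraries. Over all tested genes the median of the log2 fold changes was 0.12 on the deposited scale. It was 0.0074 under geometric scaling, in which each library is divided by the median, over genes, of its ratio to a geometric mean library, and this scale is given wherever it ended a call. Of 8 cardiomyocyte markers 1 was higher (Ryr2) and 1 lower (Myl2), while under geometric scaling 1 was higher and 4 were lower (Tnnt2, Tnni3, Myl2 and Pln). On both scales 0 of 9 endothelial markers passed the test. Fibroblast markers were higher in TGAC8 for 9 of 10 genes, with Tcf21 the exception, and their summed level was 396 to 623 FPKM in TGAC8 and 327 to 370 FPKM in WT. All 10 measured macrophage markers were higher (8 under geometric scaling), with sums of 146 to 212 FPKM in TGAC8 and 106 to 143 FPKM in WT, and the sum of 8 mural cell markers was 205 to 281 FPKM in TGAC8 and 183 to 210 FPKM in WT, with 1 of the 8, Acta2, passing the test. Each sum adds FPKM, so abundant genes weigh most in it. In the fibroblast sum Gsn was at 258 ± 42.6 FPKM in TGAC8 and 185 ± 9.66 FPKM in WT. In the macrophage sum Lyz2 was at 90.4 ± 14.2 FPKM in TGAC8 and 56.9 ± 7.35 FPKM in WT. In the mural sum Acta2 was at 68.4 ± 22.1 FPKM in TGAC8 and 30.1 ± 5.71 FPKM in WT, and Rgs5 at 92.0 ± 7.81 and 88.1 ± 4.40 FPKM. In bulk tissue a change in the number of cells of a type and a change in the RNA each cell holds cannot be told apart.

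Of the 39 genes 38 were tested, and 14 differed between genotypes, 12 higher and 2 lower in TGAC8, which is 31.6% and 5.26% of the 38. Among all tested genes 25.6% were called, 20.9% higher and 4.65% lower. The median log2 fold change of the 38 genes was 0.18, and 21 of them lay above the median of all tested genes. The genes that were higher were Mmp2, Mmp14, Mmp23, Timp2, Adam9, Adam22, Adamts2, Adamts10, Serpinb6a, Serpine2, Serpinf1 and Serpinh1, and those that were lower were Timp4 and Serpinb6b. The groups did not overlap in 6 of the tested genes, 5 with TGAC8 above (13.2%) and 1 with TGAC8 below (2.63%), where 4.79% and 1.13% of all tested genes were so separated. With geometric scaling 11 of the 14 calls were kept, and Mmp23, Adam9 and Serpinb6a no longer passed, while 20.5% of all tested genes were called, 9.74% higher and 10.8% lower.

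**Figure D1:**
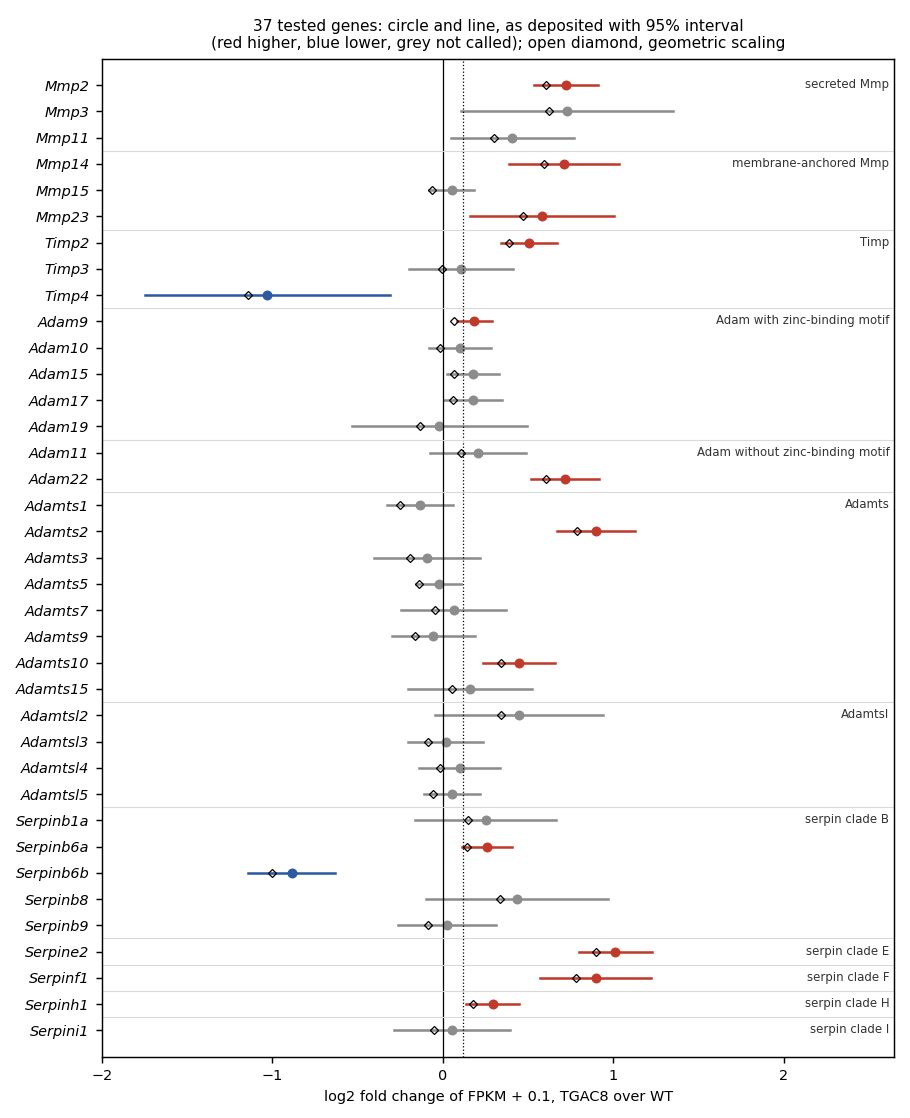
Log2 fold change (FPKM + 0.1, TGAC8 over WT) of 37 of the 38 tested genes, by role, as circles with 95% intervals from limma on 8 libraries of each genotype, with open diamonds for geometric scaling. Red marks the 12 genes that were higher, blue the 2 that were lower and grey 23 that did not pass, and the dotted line marks the median of all tested genes at 0.12. Serpine2 and Timp4 lie farthest from 0.

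Among the secreted and membrane-anchored Mmp genes, Mmp2, Mmp14 and Mmp23 were higher in TGAC8 and the other 3 did not pass the test. Mmp2, which encodes gelatinase A, ranged from 10.3 to 17.4 FPKM (median 12.7) in TGAC8 and from 6.91 to 8.997 FPKM (median 8.01) in WT. Every TGAC8 library was above every WT library. The mean was 1.67-fold higher, with a log2 fold change of 0.72 (SE 0.089, adjusted p = 1.57e-05). Mmp14, the membrane-anchored protease that activates the Mmp2 precursor at the cell surface, ranged from 3.75 to 7.71 FPKM (median 6.44) in TGAC8 and from 2.52 to 4.37 FPKM (median 3.6) in WT. TGAC8 libraries 2 and 7 lay within the WT range and the other 6 were above it, and the log2 fold change was 0.71 (SE 0.15, adjusted p = 0.00272). Mmp23, a membrane-anchored member of atypical domain structure, ranged from 1.43 to 2.76 FPKM (median 1.89) in TGAC8 and from 0.585 to 2.12 FPKM (median 1.27) in WT. Here 3 TGAC8 libraries were above the highest WT library, and the log2 fold change was 0.58 (SE 0.20, adjusted p = 0.04195). That call did not hold under geometric scaling (adjusted p = 0.119), and it was lost in 11 of the 16 fits that each left out 1 library: TGAC8 1, 2, 3, 5, 7 or 8, or WT 1, 2, 5, 6 or 7 (adjusted p up to 0.0760).

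Mmp15, a membrane-anchored relative of Mmp14, had the highest level of the family in both genotypes. It ranged from 14.2 to 18.4 FPKM (median 15.6) in TGAC8 and from 14.4 to 16.96 FPKM (median 15.3) in WT. The groups overlapped, and the log2 fold change of 0.051 (95% interval -0.082 to 0.18, adjusted p = 0.583) turned to -0.064 (adjusted p = 0.377) under geometric scaling. Mmp15 made up 49.6 to 53.9% of the summed FPKM of the 6 Mmp genes in WT and 36.6 to 43.3% in TGAC8, so its share was smaller in each TGAC8 library than in any WT library. The sum itself was 33 to 48.3 FPKM in TGAC8 and 27.1 to 32.7 FPKM in WT, with no overlap on the deposited scale. The gap between 32.7 and 33 FPKM was narrow, and the sum was not computed under geometric scaling. The remaining members were near 1 FPKM. Mmp3, stromelysin 1, was at 1.46 ± 0.658 FPKM in TGAC8 and 0.827 ± 0.357 FPKM in WT, with 5 TGAC8 libraries above the highest WT library (adjusted p = 0.0798, or 0.0277 without TGAC8 library 1). Mmp11, stromelysin 3, was at 1.11 ± 0.203 FPKM in TGAC8 and 0.831 ± 0.279 FPKM in WT (adjusted p = 0.0887). It passed without TGAC8 library 3 (adjusted p = 0.0277) or without WT library 1 (adjusted p = 0.0226).

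Of the 3 Timp genes Timp2 was higher and Timp4 lower in TGAC8, and Timp3 did not pass the test. Timp2, which inhibits the family and is also part of the cell surface complex in which Mmp14 activates the Mmp2 precursor, ranged from 15.1 to 23.8 FPKM (median 19.8) in TGAC8 and from 12.3 to 13.9 FPKM (median 13.3) in WT. All 8 TGAC8 libraries were above all 8 WT libraries, by 1.44-fold in the mean, and the log2 fold change was 0.51 (SE 0.079, adjusted p = 0.0001499). Timp2, Mmp14 and Mmp2, the members of that complex, were thus all higher in TGAC8, and they stayed so under geometric scaling, with adjusted p of 0.000110, 0.00680 and 1.73e-05. Timp4, an inhibitor known for its expression in the heart, ranged from 0.515 to 5.81 FPKM (median 2.12) in TGAC8 and from 3.48 to 7.62 FPKM (median 4.204) in WT. Of the TGAC8 libraries 6 were below the lowest WT library, while library 4 at 4.67 FPKM and library 7 at 5.81 FPKM lay within the WT range. The log2 fold change was -1.03 (SE 0.34, adjusted p = 0.0345) as deposited and -1.14 (adjusted p = 0.02295) under geometric scaling. This call was lost without any one of TGAC8 libraries 5, 6 and 8 or WT libraries 1, 2 and 5, with adjusted p of 0.0530 to 0.0687.

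Timp3, a matrix-bound inhibitor that also acts on Adam17 and on ADAMTS proteases, had the highest level of the 3 Timp genes, from 15.2 to 38.7 FPKM (median 22.5) in TGAC8 and from 17.97 to 24.9 FPKM (median 21.1) in WT. The groups overlapped and its log2 fold change of 0.11 (95% interval -0.20 to 0.41, adjusted p = 0.618) turned to -0.0076 under geometric scaling. Timp4 made up 9.51 to 16.6% of the summed FPKM of the 3 genes in WT and 1.63 to 9.85% in TGAC8. The Timp sum was 31.6 to 64.7 FPKM in TGAC8 and 35.5 to 45.9 FPKM in WT, and the ratio of the Timp sum to the Mmp sum was 0.852 to 1.79 in TGAC8 and 1.09 to 1.56 in WT. Both overlapped, and both ranges in TGAC8 enclosed those in WT. For the ratio the upper end was TGAC8 library 7 alone, and the next TGAC8 library, at 1.35, was below the highest WT library. TGAC8 libraries 1, 3, 5 and 8, at 1.04, 0.852, 0.983 and 0.878, were below the lowest WT library. The median ratio was 1.085 in TGAC8 and 1.32 in WT, and the difference was not tested. Timp1 was set aside and is in neither the Timp sum nor the ratio, so they do not cover the whole Timp family. Timp3 and Timp4 each lie within a synapsin gene, Syn3 and Syn2, on the opposite strand, and Timp2 shares its strand with the overlapping Cep295nl. Without knowledge of how strand was used in counting, reads of such pairs could be shared. The same holds for Mmp11, Adam17, Adamts7 and Adamts9, which overlap Chchd10, Iah1, Tbc1d2b and 9530026P05Rik on the opposite strand. These partners are in the table, while Syn2, Syn3 and Cep295nl are not listed there by those names. Adam15, Adam19, Adam22, Adamts2, Adamts3, Adamtsl3 and Serpini1 also overlap annotated genes, for Adam19 and Adam22 on both strands. Those genes are likewise not listed in the table by their names.

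**Figure D2:**
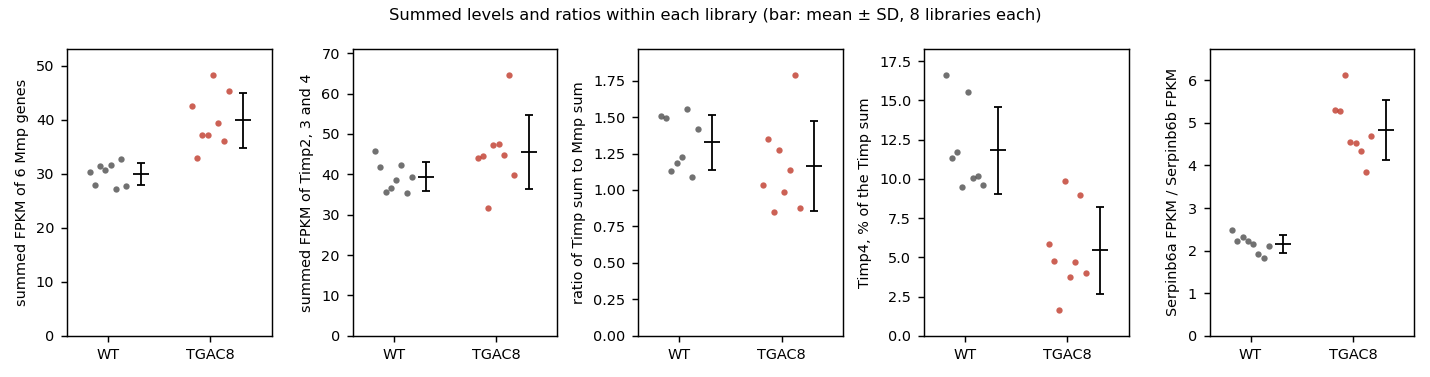
Summed FPKM of the 6 Mmp genes and of Timp2, Timp3 and Timp4, their ratio, the percentage of the Timp sum held by Timp4, and the ratio of Serpinb6a to Serpinb6b, with 1 point for each library and bars for mean ± SD (n = 8). On the deposited scale the genotypes do not overlap in the Mmp sum, where the closest libraries are at 33 FPKM (TGAC8) and 32.7 FPKM (WT). They do not overlap in the Serpinb6a to Serpinb6b ratio, and they overlap in the other 3 quantities.

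Of the 5 Adam genes with the zinc-binding motif 1 was called. Adam9, a widely expressed sheddase, had the highest level, from 9.5 to 11.7 FPKM (median 10.5) in TGAC8 and from 8.69 to 9.73 FPKM (median 9.27) in WT. TGAC8 libraries 2 and 6 lay within the WT range. The mean was 1.14-fold higher, with a log2 fold change of 0.18 (SE 0.049, adjusted p = 0.01098), and under geometric scaling it was 0.068 (adjusted p = 0.354). Adam10 and Adam17, the principal sheddases of Notch receptors and of tumor necrosis factor respectively, were at 6.84 ± 0.447 FPKM in TGAC8 and 6.45 ± 1.03 FPKM in WT and at 5.0 ± 0.481 FPKM in TGAC8 and 4.43 ± 0.589 FPKM in WT, with adjusted p of 0.423 and 0.123. The 95% interval of the log2 difference, which is not adjusted for the number of genes, was -0.083 to 0.28 for Adam10 and 0.0046 to 0.35 for Adam17. Under geometric scaling that of Adam17 was -0.11 to 0.24. Adam15 had a log2 fold change of 0.18 (SE 0.073, adjusted p = 0.0833) and passed without TGAC8 library 2 (adjusted p = 0.0195) or library 7 (adjusted p = 0.0476). Adam19, known for roles in heart valve and septum development, ranged from 1.73 to 7.03 FPKM in TGAC8 and from 2.77 to 5.17 FPKM in WT (adjusted p = 0.961).

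Adam22 carries no zinc-binding motif and is known in the brain as a receptor for the secreted protein Lgi1. It ranged from 1.98 to 2.78 FPKM (median 2.39) in TGAC8 and from 1.104 to 1.698 FPKM (median 1.38) in WT. The groups did not overlap, the mean was 1.69-fold higher in TGAC8, and the log2 fold change was 0.72 (SE 0.094, adjusted p = 2.93e-05). Its mean was below that of each Adam gene with the motif in both genotypes. Adam11, the other member without the motif, was at 0.8204 ± 0.171 FPKM in TGAC8 and 0.692 ± 0.106 FPKM in WT (adjusted p = 0.271).

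Of the 8 tested Adamts genes Adamts2 and Adamts10 were higher in TGAC8 and the other 6 did not pass. Adamts2, which removes the amino-terminal propeptide of fibrillar procollagens, ranged from 2.07 to 3.76 FPKM (median 2.76) in TGAC8 and from 1.28 to 1.68 FPKM (median 1.396) in WT. Each TGAC8 library was above each WT library, the mean was 1.95-fold higher and the log2 fold change was 0.90 (SE 0.11, adjusted p = 1.29e-05). Its closest relative among the members, Adamts3, with 67.7% identical bases over 3405 aligned bases of coding sequence, was at 0.617 ± 0.133 FPKM in TGAC8 and 0.665 ± 0.138 FPKM in WT, a log2 fold change of -0.094 (SE 0.15, adjusted p = 0.677). Adamts10, which binds fibrillin microfibrils, ranged from 1.47 to 2.55 FPKM (median 1.84) in TGAC8 and from 1.13 to 1.73 FPKM (median 1.33) in WT. TGAC8 library 3 lay within the WT range and the other 7 were above it, with a log2 fold change of 0.45 (SE 0.10, adjusted p = 0.00357).

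Adamts1, Adamts5, Adamts9 and Adamts15 are proteoglycan-cleaving members, known for versican as a substrate. Adamts1, the most abundant of the family in WT, was at 4.29 ± 0.536 FPKM in TGAC8 and 4.73 ± 0.684 FPKM in WT, with a log2 fold change of -0.14 (SE 0.092, adjusted p = 0.294) as deposited and -0.25 (adjusted p = 0.0512) under geometric scaling. Adamts5 was at 2.97 ± 0.192 FPKM in TGAC8 and 3.03 ± 0.266 FPKM in WT, and its interval of -0.16 to 0.11 on the log2 scale was the narrowest of the Adamts genes. Adamts9 and Adamts15 had log2 fold changes of -0.055 and 0.16 with adjusted p of 0.761 and 0.527, and Adamts7, a protease of cartilage oligomeric matrix protein, 0.064 with 0.784. Among these 5 genes no group pair was separated. Versican itself (Vcan) was at 3.32 ± 0.529 FPKM in TGAC8 and 1.95 ± 0.316 FPKM in WT, a log2 fold change of 0.74 (SE 0.11, adjusted p = 0.000133).

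Adamts19, a gene known for a role in heart valves, fell just under the filter of 0.5 FPKM and was not part of the test. It ranged from 0.5262 to 1.16 FPKM (median 0.936) in TGAC8 and from 0 to 0.162 FPKM (median 0.0578) in WT, with 1 WT library listed at 0. The groups did not overlap and the mean was 14.2-fold higher in TGAC8. When the filter was dropped its log2 fold change was 2.66 (adjusted p = 3.77e-08), and this value depends on the pseudocount because the WT levels lie below or near it. The 4 Adamts-like genes, which bind fibrillin and other matrix proteins, did not pass the test. Adamtsl5 was the most abundant at 7.42 ± 0.984 FPKM in TGAC8 and 7.11 ± 0.6803 FPKM in WT (adjusted p = 0.64), and Adamtsl2 had the widest interval, -0.048 to 0.94 around a log2 fold change of 0.45.

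**Figure D3:**
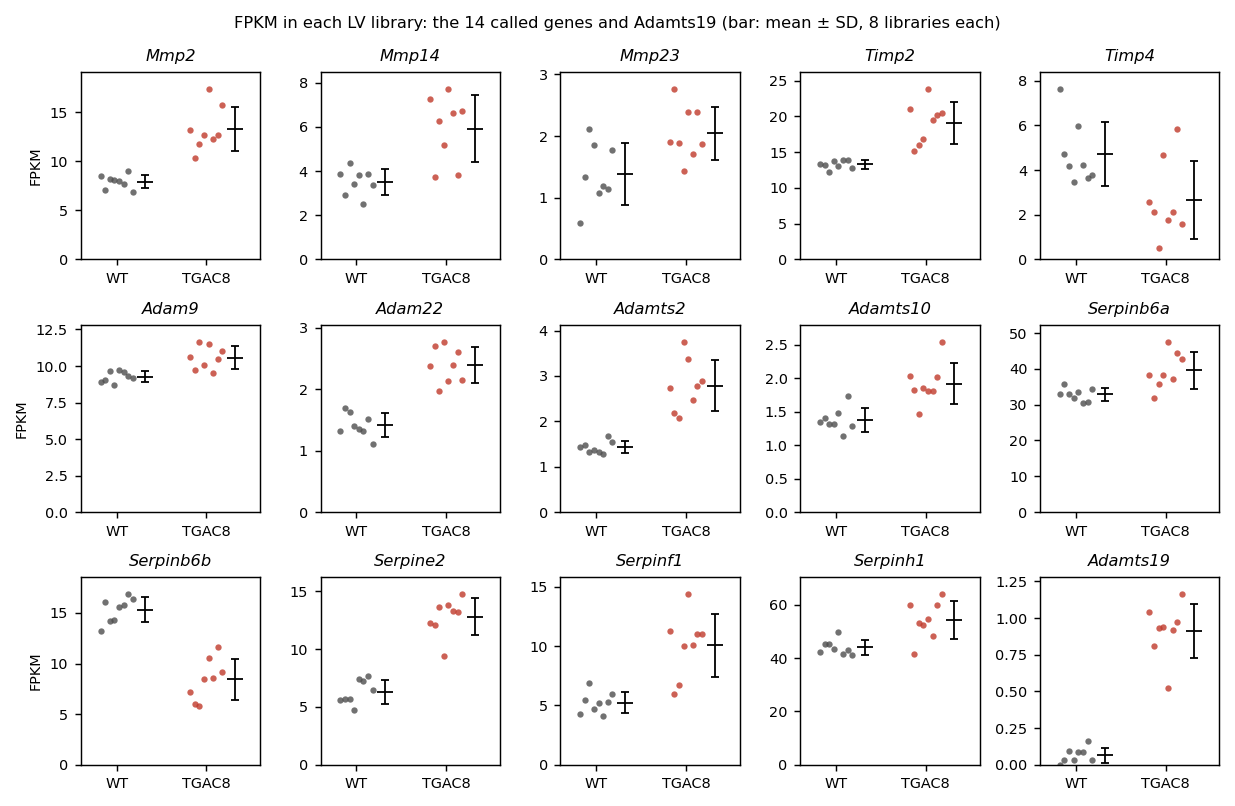
FPKM in each of the 8 WT and 8 TGAC8 libraries for the 14 genes that differed between genotypes and for Adamts19, with 1 point for each library and bars for mean ± SD, on axes that start at 0. The points of the 2 genotypes are separated for Mmp2, Timp2, Adam22, Adamts2, Serpinb6b, Serpine2 and Adamts19 and overlap for the other genes.

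Among the clade B serpins, which stay inside cells, a pair of paralogs moved in opposite directions on the deposited scale, Serpinb6b lower and Serpinb6a higher, and the second of these calls was lost under geometric scaling. Serpinb6b ranged from 5.85 to 11.6 FPKM (median 8.53) in TGAC8 and from 13.2 to 16.8 FPKM (median 15.7) in WT. All TGAC8 libraries were below all WT libraries, the mean was 0.550 times that of WT, and the log2 fold change was -0.89 (SE 0.12, adjusted p = 4.38e-05). Serpinb6a, whose human counterpart inhibits cathepsin G, ranged from 31.7 to 47.6 FPKM (median 38.3) in TGAC8 and from 30.6 to 35.7 FPKM (median 32.9) in WT. TGAC8 library 2 lay within the WT range and the other 7 were above it. The log2 fold change was 0.26 (SE 0.069, adjusted p = 0.01098) as deposited, and 0.14 (adjusted p = 0.106) under geometric scaling. The ratio of Serpinb6a to Serpinb6b was 3.84 to 6.13 in TGAC8 and 1.83 to 2.49 in WT, without overlap, while their summed level was 48.0 ± 6.99 FPKM in TGAC8 and 48.2 ± 2.20 FPKM in WT (SD, n = 8). Their coding sequences were identical at 86.3% of 1128 aligned bases, so the split of reads between them is uncertain. No stretch of 75 bases, about as long as a read, was shared exactly by both coding sequences (0 of 1057 windows of Serpinb6b).

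Serpinb6b and Serpinb6a lie on chromosome 13 on opposite strands, at chr13:32965209-32979067 on the plus strand and chr13:33917918-34002794 on the minus strand (mm10). The bases before their start sites, from the RefSeq promoter table on GRCm38.p6, are shown because the levels of the 2 genes moved apart. The table has 1 start for Serpinb6b and 2 for Serpinb6a, and each sequence covers at most 250 bases and ends where an annotated exon of the gene begins. Capitals mark GC boxes, found as GGGCGG on either strand.
Serpinb6b, chr13:32965011-32965208, plus strand: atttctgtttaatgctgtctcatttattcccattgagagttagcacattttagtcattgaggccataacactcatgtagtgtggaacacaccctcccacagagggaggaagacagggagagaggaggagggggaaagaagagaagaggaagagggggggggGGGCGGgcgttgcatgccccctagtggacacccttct
Serpinb6a, first start, chr13:34002795-34003044, minus strand: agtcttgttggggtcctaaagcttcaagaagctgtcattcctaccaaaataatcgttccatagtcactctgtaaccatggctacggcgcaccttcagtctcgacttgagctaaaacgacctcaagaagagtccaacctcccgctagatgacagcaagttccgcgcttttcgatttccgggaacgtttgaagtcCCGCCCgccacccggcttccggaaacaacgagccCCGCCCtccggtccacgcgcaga
Serpinb6a, second start, chr13:33936199-33936333, minus strand: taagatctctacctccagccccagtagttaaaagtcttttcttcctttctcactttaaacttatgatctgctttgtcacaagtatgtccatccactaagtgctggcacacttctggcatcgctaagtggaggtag
Serpinb6b had 1 GC box within 198 bases, and Serpinb6a had 2 within the 250 bases before its first start and 0 within the 135 bases shown before its second. Which start was used cannot be read from a level per gene. Serpinb6a also overlaps Nqo2 and Ripk1 on the opposite strand, both of which are in the table.

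The other clade B members did not pass the test. Serpinb9, the granzyme B inhibitor, was at 2.98 ± 0.453 FPKM in TGAC8 and 2.98 ± 0.736 FPKM in WT (95% interval of the log2 difference -0.26 to 0.31). Serpinb1a, an inhibitor of neutrophil elastase, had a log2 fold change of 0.25 (SE 0.20, adjusted p = 0.369), with 5 TGAC8 libraries above the highest WT library and 1 below the lowest. Serpinb8, which can inhibit furin, was at 0.682 ± 0.223 FPKM in TGAC8 and 0.496 ± 0.223 FPKM in WT (adjusted p = 0.219).

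Serpine2, or protease nexin-1, had the largest increase of the tested members. This secreted inhibitor of thrombin and of the plasminogen activators ranged from 9.41 to 14.7 FPKM (median 13.2) in TGAC8 and from 4.76 to 7.696 FPKM (median 6.08) in WT. Every TGAC8 library was above every WT library, the mean was 2.03-fold higher, and the log2 fold change was 1.01 (SE 0.10, adjusted p = 1.69e-06), or 0.90 (adjusted p = 2.56e-06) under geometric scaling. The genes of its target proteases Plat and Plau did not pass (adjusted p = 0.425 and 0.935), nor did the thrombin receptor F2r (adjusted p = 0.668). Lrp1, the endocytic receptor that clears serpin-protease complexes, was at 13.99 ± 1.56 FPKM in TGAC8 and 9.35 ± 0.885 FPKM in WT, a log2 fold change of 0.57 (SE 0.073, adjusted p = 2.25e-05) without overlap of the groups.

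Serpinf1 and Serpinh1 inhibit no protease. Serpinf1, pigment epithelium-derived factor, a secreted antiangiogenic protein, ranged from 5.995 to 14.4 FPKM (median 10.5) in TGAC8 and from 4.11 to 6.93 FPKM (median 5.25) in WT. TGAC8 libraries 2 and 3 lay within the WT range and the other 6 above it, the mean was 1.92-fold higher, and the log2 fold change was 0.90 (SE 0.15, adjusted p = 0.000385). Serpinh1, the chaperone Hsp47 that folds procollagen in the endoplasmic reticulum, had the highest level of all 39 genes and ranged from 41.4 to 63.9 FPKM (median 53.9) in TGAC8 and from 41.3 to 49.6 FPKM (median 43.2) in WT. TGAC8 libraries 2 and 6 lay within the WT range, and the log2 fold change was 0.29 (SE 0.074, adjusted p = 0.00795) as deposited and 0.18 (adjusted p = 0.0491) under geometric scaling. Serpini1, neuroserpin, an inhibitor of tissue plasminogen activator best known from neurons, was at 1.09 ± 0.312 FPKM in TGAC8 and 1.01 ± 0.139 FPKM in WT (adjusted p = 0.843).

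Libraries of the TGAC8 group differed in which genes were high. TGAC8 library 5 had the highest level of Mmp2, Mmp14, Timp2, Serpinb6a and Serpinf1 and also the highest fibroblast marker sum (623 FPKM). Its mural cell marker sum was the highest too (281 FPKM), and its macrophage marker sum was 211 FPKM. In all it was highest for 7 of the 39 genes, fewer than library 7 with 10 and library 8 with 9. TGAC8 library 2 had the lowest level of Mmp2, Mmp14, Timp2, Serpinb6a, Serpinf1 and Serpinh1 in its group, and of 17 of the 39 genes in all. Its fibroblast and mural cell marker sums were also the lowest of the group (396 and 205 FPKM). The marker sums weigh their abundant genes most, such as Gsn for fibroblasts and Acta2 and Rgs5 for mural cells. The part of the number of fibroblasts or mural cells, or of the RNA each cell holds, in these gene levels was not tested. Serpine2 was ordered otherwise, with its lowest TGAC8 level in library 4 (9.41 FPKM) and its highest in library 8 (14.7 FPKM). Timp3 and Timp4 shared their extremes: each was highest in TGAC8 library 7, at 38.7 and 5.81 FPKM, and lowest in TGAC8 library 3, at 15.2 and 0.515 FPKM. In Serpinb6b libraries 7 and 3 were also the highest and the lowest of the group, at 11.6 and 5.85 FPKM. Library 7 had the lowest macrophage marker sum of the TGAC8 group, 146 FPKM, and its fibroblast sum was 527 FPKM.

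**Figure D4:**
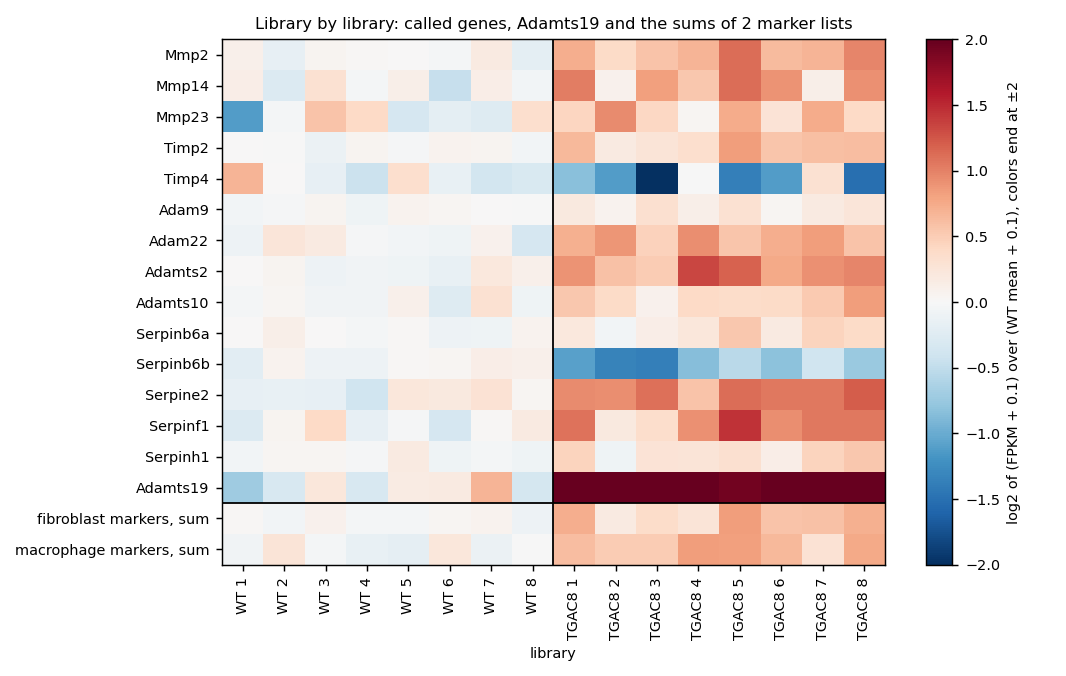
Log2 ratio of FPKM + 0.1 to the WT mean + 0.1 in each library, for the 14 called genes and Adamts19, with the summed levels of the fibroblast and macrophage marker lists below the line, on a color scale that ends at ±2. Library 5 of TGAC8 is darkest for Mmp14, Timp2, Serpinf1 and the fibroblast sum, and Timp4 is near the WT mean in TGAC8 libraries 4 and 7 alone.

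Genes that act with or on these proteins were counted on 3 lists, of which 65 of 85 genes were in the table. The lists were chosen by known role, with earlier results of these data known. Of the 65, 27 were higher and 3 lower in TGAC8, with a median log2 fold change of 0.26, and 21 and 4 under geometric scaling. Among all tested genes 20.9% were higher and 4.65% lower, and 9.74% and 10.8% under geometric scaling. Among activators and partners 6 of 21 were higher (Furin, Pcsk6, Tspan17, Lrp1, Sulf1 and Sulf2) and 1 was lower. Furin, the convertase that removes the propeptides of Mmp14 and of many ADAM and ADAMTS proteins, was at 15.4 ± 1.41 FPKM in TGAC8 and 11.2 ± 0.592 FPKM in WT, a log2 fold change of 0.46 (SE 0.056, adjusted p = 1.29e-05) with no overlap. Sulf2, an extracellular sulfatase that edits heparan sulfate, was at 18.01 ± 2.99 FPKM in TGAC8 and 9.06 ± 0.927 FPKM in WT, a log2 fold change of 0.97 (SE 0.093, adjusted p = 9.61e-07). Tspan17, a tetraspanin that accompanies Adam10, had a log2 fold change of 0.67 (SE 0.18, adjusted p = 0.0111). The gene that was lower, Bsg, encodes basigin, a membrane glycoprotein known as an inducer of Mmp expression, and was at 363 ± 18.9 FPKM in TGAC8 and 474 ± 31.5 FPKM in WT, a log2 difference of -0.38 (SE 0.048, adjusted p = 1.74e-05) with every TGAC8 library below every WT library.

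Among 8 measured inhibitors outside the Timp and serpin families Pi16 was higher and Tfpi lower. Pi16, whose protein is called a peptidase inhibitor, had a log2 fold change of 0.54 (SE 0.14, adjusted p = 0.00799). Tfpi, the Kunitz-type inhibitor of the tissue factor pathway, was at 14.5 ± 3.01 FPKM in TGAC8 and 18.9 ± 2.06 FPKM in WT, with a log2 fold change of -0.40 (SE 0.12, adjusted p = 0.0202). Reck, a membrane-anchored inhibitor of Mmp2 and Mmp14, was at 0.814 ± 0.1997 FPKM in TGAC8 and 0.638 ± 0.167 FPKM in WT (adjusted p = 0.204). Of 36 substrates 20 were higher and 1, Sdc4, was lower, and under geometric scaling 14 and 2. Cd44, the hyaluronan receptor that is shed by Mmp14 and Adam10, was at 3.87 ± 0.775 FPKM in TGAC8 and 1.69 ± 0.327 FPKM in WT, a log2 fold change of 1.14 (SE 0.13, adjusted p = 1.01e-05). Col3a1 and Col1a1, the fibrillar collagens whose precursors pass through Serpinh1 and Adamts2, had log2 fold changes of 1.06 (SE 0.13, adjusted p = 1.14e-05) and 0.84 (SE 0.13, adjusted p = 0.000133). These 2 collagens, with Col1a2, Dcn and Lum, are also on the fibroblast marker list. The basement membrane collagens Col4a1 and Col4a2 and the receptors Notch1, Notch2 and Notch4 were among the substrates that did not pass.

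The promoters of 29 of the 39 genes were in the RefSeq table, and motifs were looked for on both strands in the full 250 bases before each start in that table, exons of the gene included, a gene counting once if any of its starts had the motif. The full cAMP response element TGACGTCA was in 0 of 29, against 1.77% of 27025 genes in the table, and the shorter TGACG, part of the full element, was in 5 of 29, against 19.8%. The AP-1 motif TGANTCA was in the promoters of Mmp3, Adam19 and Serpinb8, against 7.82% of all, and the GC box GGGCGG in 20 of 29, against 35.4%. Of the called genes Mmp14, Timp2, Adamts2, Serpinb6a, Serpinb6b, Serpine2 and Serpinh1 had a GC box. Genes outside the 29 were not searched, so a called gene not named here need not lack one. The percentages are over all 27025 genes with a listed promoter, more than the 11811 with FPKM, and no share over the latter was computed. These counts describe the letters of the windows searched.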

How the data were processed

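LV libraries of 8 TGAC8 and 8 WT mice were made by the authors with a low-input stranded total RNA kit and sequenced from a single end. Reads were aligned with TopHat (2.1.1 in the submitters' processing notes, another version in the methods) to mm10 joined to the human cDNA. FPKM were computed by the authors with Cufflinks 2.1.1, library by library, and deposited in a table. The table also holds the authors' own comparison (mean FPKM of each genotype, log2 fold change, test statistic, p-value, q-value and significance), which was not used. For the gene annotation, strand and reads that map more than once, the settings are not stated in the sources used. FPKM carry no counts, so the depth behind a value is unknown, and the spread between mice serves as the error.

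Genes that averaged 0.5 FPKM or more in the 16 libraries were log2 transformed after adding 0.1 and fitted with limma 3.58.1 (R 4.3.3), variance trend included, 2-sided, at an adjusted p of 0.05. The added 0.1 shrinks the fold changes of low genes. Intervals are at 95% for each gene and, unlike the adjusted p-values, take no account of the number of genes tested. The fit was tested on simulated data. The genes and all lists (3 of related genes, 13 of cell type markers) were chosen with earlier results of these data known. Named were the called members, the most abundant member of each role, members whose call depended on scale, the member below the filter, and the 3 related genes of each list with the largest called change. Other members and genes are given as context. The result for 1 tested member is not reported here, and the counts include it. Marker lists not named in the report had these counts: 0 of 5 atrial and 0 of 5 erythroid genes passed, 0 of 2 neutrophil genes, and none of the single mast cell, mesothelial and Schwann cell genes measured, while no lymphocyte or adipocyte marker was in the table. Alternatives were pseudocounts of 1 and 0.01, no filter or one at 1 FPKM, geometric scaling, no variance trend, the library number as a block, and leaving out each library. Zinc-binding motifs and positions came from GENCODE vM21 on mm10 and promoters from RefSeq on GRCm38.p6.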

Additional observations from a re-analysis of the deposited data

Results flagged for a closer look

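In 3 of 78 groups of 8 libraries (39 genes in 2 genotypes) 1 library stood apart from the others by Dixon's criterion, which sets the gap to the nearest library against the group's range. Chance alone gives such a gap in about 1 in 20 groups, or 3.9 of 78. Mmp11 was lowest in TGAC8 library 3, at 0.659 FPKM, with the next library at 1.05 FPKM (gap 0.576 of the range). Adamtsl2 was highest in WT library 3, at 1.29 FPKM, with the next at 0.819 FPKM (0.551 of the range). Adamtsl5 was also highest in WT library 3, at 8.69 FPKM, with the next at 7.25 FPKM (0.675 of the range). None of the 3 genes passed the test of the genotypes, and Mmp11 passed it without the library that stood apart (adjusted p = 0.0277, limma with Benjamini-Hochberg adjustment).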

How the results depend on the processing

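The number of members higher in TGAC8 was 8 with geometric scaling and the block together, 9 with geometric scaling and 11 to 13 under the other alternatives, leaving out 1 library included. The number lower was 2, and 1 with the library number as a block and in 6 of the fits that left out 1 library (range 1 to 2), in each case through the loss of Timp4. With the block Mmp23 (adjusted p = 0.0737) and Timp4 (adjusted p = 0.0506) lost their calls and no member gained one. Geometric scaling and the block together also took the call of Serpinh1 (adjusted p = 0.0871). No label pairs mice by library number, and same-numbered libraries did not deviate together (correlations of -0.0617 to 0.00672). Over all tested genes the block moved the calls from 2954 to 2444. Related genes that were higher numbered 25 to 29 and those lower 3 to 3 with 1 library left out, and 17 were higher with geometric scaling and the block together. With the block alone 25 were higher and 2 lower, since Tspan17 (adjusted p = 0.0534), Notch3 (adjusted p = 0.0770) and Tfpi (adjusted p = 0.0537) no longer passed. Geometric scaling turned the sign of 9 genes that passed in neither fit, and gave the same values with the block: Mmp15 -0.064, Timp3 -0.0076, Adam10 -0.016, Adamts7 -0.046, Adamtsl3 -0.088, Adamtsl4 -0.014, Adamtsl5 -0.060, Serpinb9 -0.090 and Serpini1 -0.054 on the log2 scale. A pseudocount of 1 gave Adam19 0.0026. With 1 library left out the sign turned in at least 1 fit for 6 genes that did not pass, over ranges of -0.14 to 0.14 (Adam19), -0.046 to 0.0027 (Adamts5), -0.017 to 0.15 (Adamts7), -0.010 to 0.067 (Adamtsl3), -0.052 to 0.10 (Serpinb9) and -0.027 to 0.17 (Serpini1). The other fold change that moved was that of Adamts19, 0.84 with a pseudocount of 1 and 3.99 with 0.01. Levels near the pseudocount and the unknown depth limit Adamts19 and the genes below 1 FPKM most.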
